A study of Mus musculus with 64 samples.

Results

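The daily change between lights on and lights off in control mouse liver was described from 8 libraries out of 64 in the series. They were chosen by label alone, as the 4 libraries marked sh-Ctl at zeitgeber time 0 (ZT0, dawn of the light schedule) and the 4 marked sh-Ctl at ZT12 (dusk). Zeitgeber time counts the hours after lights on. All mice were male C57BL/6J, were fed freely and had received an AAV8 vector with a short hairpin RNA 4 weeks before the liver was taken. The sh-Ctl mice carried a control hairpin, so that every animal used as a control here had been given a virus, and the sh-Acsf3 mice, used for one comparison at the end, carried a hairpin against the mitochondrial enzyme gene Acsf3 that the design text calls specific to liver. Age and the light schedule were not given in the labels. RNA from frozen liver was measured by BRB-seq, a bulk method that tags the 3′ ends of transcripts with sample barcodes and with unique molecular identifiers (UMIs) that mark single molecules.

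The liver clock is a feedback loop of transcription factors that runs in nearly every hepatocyte. ARNTL (also called BMAL1) pairs with CLOCK or NPAS2 and switches on genes through the E-box motif, among them the Per and Cry genes, whose proteins then block that pair. REV-ERB repressors (Nr1d1, Nr1d2) and ROR activators compete at another motif, the RORE, which lies at Arntl and Nfil3, and the PAR bZIP factors DBP, TEF and HLF act through the D-box. Mice eat mostly in the dark, so that dawn follows the nightly meals and dusk follows a day with little food, and hepatic glucose, lipid and bile metabolism is known to follow both the clock and feeding.

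The 8 libraries held 1.87 to 3.23 M UMIs at ZT0 and 3.1 to 4.47 M at ZT12, with 13064 to 14233 and 13989 to 14817 genes detected, so that the dusk libraries were on the whole the deeper ones. The part of depth in the results was not tested apart from the scaling of each library. Mitochondrially encoded transcripts took 17.3 to 22.4% of UMIs at ZT0 and 16 to 21.2% at ZT12. The labelled tissue was checked against 10 hepatocyte markers, all of which were detected and tested, with a summed level of 112000 to 142000 CPM (UMI counts relative to each library's scaled total) at ZT0 and 84200 to 148000 CPM at ZT12. Of these 8, 1 library stood apart: in ZT12 replicate 2 the acute-phase genes Saa1 and Orm2 lay at 4204 and 2334 CPM, against 30.2 to 47.7 and 6.59 to 10.6 CPM in the other ZT12 libraries, and results that rest on it are given with and without it. At other times Saa1 was also high in sh-Ctl ZT9 replicate 1 (3604 CPM), ZT15 replicate 2 (2092 CPM) and ZT18 replicate 2 (2259 CPM). The hairpin's target did not differ detectably between the times, with Acsf3 at 10.6 to 13.4 CPM at ZT0 and 10.8 to 14.7 CPM at ZT12 (difference 0.03 ± 0.28, log2 with SE, edgeR adjusted p = 0.979). The labels do not say that the replicates were separate animals, and p-values measure only the spread between these samples, which may be technical.

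The promoters below are shown because they belong to clock genes whose transcripts moved in opposite directions between dawn and dusk and because each holds an exact copy of one of the 3 motifs of the loop. Each runs 5′ to 3′ on the gene's strand from 250 bases before to 50 bases after the RefSeq start (GRCm38.p6), with matches in capitals. The motifs searched on both strands were CACGTG (E-box), TTATGTAA (D-box) and TAGGTCA (RORE), which do not overlap one another here, and both motifs and promoters were picked after the values had been seen. Ciart (chr3:95882179-95882478, minus strand) holds 3 E-box copies and Per1 (chr11:69098699-69098998, plus strand) holds 1. Per3 (chr4:151044616-151044915, minus strand) holds 2 D-box copies. Arntl (chr7:113207261-113207560, plus strand) holds 1 RORE just after its start, and Nfil3 (chr13:52980990-52981289, minus strand) holds 1 RORE on the opposite strand, so that it reads TGACCTA.
Ciart: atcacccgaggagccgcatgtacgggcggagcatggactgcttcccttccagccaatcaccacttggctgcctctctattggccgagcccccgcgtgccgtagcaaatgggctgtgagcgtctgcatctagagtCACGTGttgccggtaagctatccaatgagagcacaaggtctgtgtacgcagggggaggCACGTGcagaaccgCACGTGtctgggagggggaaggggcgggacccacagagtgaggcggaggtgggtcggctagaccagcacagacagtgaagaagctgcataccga
Per1: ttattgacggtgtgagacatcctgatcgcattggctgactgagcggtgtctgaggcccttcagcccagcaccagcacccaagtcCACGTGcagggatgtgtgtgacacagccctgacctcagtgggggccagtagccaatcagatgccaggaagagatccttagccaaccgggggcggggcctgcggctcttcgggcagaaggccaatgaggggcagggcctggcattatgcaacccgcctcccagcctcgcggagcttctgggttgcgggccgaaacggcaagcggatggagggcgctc
Per3: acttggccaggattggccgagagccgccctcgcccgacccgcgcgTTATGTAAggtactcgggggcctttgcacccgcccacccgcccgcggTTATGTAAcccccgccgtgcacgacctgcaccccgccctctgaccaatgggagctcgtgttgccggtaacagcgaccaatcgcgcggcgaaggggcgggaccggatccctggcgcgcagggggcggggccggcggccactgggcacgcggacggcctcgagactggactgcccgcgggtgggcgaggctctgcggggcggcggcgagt
Arntl: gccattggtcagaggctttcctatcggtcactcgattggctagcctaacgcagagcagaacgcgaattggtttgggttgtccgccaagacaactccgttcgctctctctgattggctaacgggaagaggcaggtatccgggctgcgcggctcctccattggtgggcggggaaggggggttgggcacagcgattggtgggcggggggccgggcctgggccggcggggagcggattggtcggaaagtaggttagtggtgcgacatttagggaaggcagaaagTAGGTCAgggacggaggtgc
Nfil3: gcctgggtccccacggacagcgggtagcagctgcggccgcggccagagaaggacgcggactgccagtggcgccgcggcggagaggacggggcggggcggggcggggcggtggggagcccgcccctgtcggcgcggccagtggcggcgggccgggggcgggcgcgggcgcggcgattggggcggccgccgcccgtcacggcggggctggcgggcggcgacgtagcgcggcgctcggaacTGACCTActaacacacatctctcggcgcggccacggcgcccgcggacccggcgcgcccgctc
Shares were taken per gene, each gene counted once if any of its windows held the letters. The RORE letters were present in 13 of the 228 genes lower at ZT12 that had a window (5.7%). They were present in 2 of the 213 such genes higher at ZT12 (0.939%), against 2.64% of the 8007 tested genes with a window. The D-box letters were in 4 of the higher genes (1.88%), in 2 of the lower genes (0.877%) and in 0.774% of all tested. The E-box letters were in 15.5% and 15.4% of the higher and lower genes and in 12.1% of all tested. Counted per window instead of per gene, a different unit, the E-box, D-box and RORE shares over all 32851 windows were 7.15%, 0.938% and 2.61%. These shares describe letters in a window and not binding. Among the clock genes not printed here, Cry1, which fell, and Tef, which rose, each have a window with 1 E-box copy, while the windows of Dbp, Nr1d1, Nr1d2, Cry2, Hlf, Clock, Npas2 and Rora hold none of the 3 motifs.

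The first question was which liver genes differ between dusk and dawn. Of 10097 genes tested, 560 (5.55%) passed the edgeR quasi-likelihood test at an adjusted p of 0.05, with 268 (2.65%) higher and 292 (2.89%) lower at ZT12. At least 2-fold differences were found for 95 of the higher and 156 of the lower genes, and at least 4-fold differences for 30 and 33. In 1095 genes (10.8% of those tested) all 4 libraries of one time lay above all 4 of the other, and 449 of the 560 genes that passed were among these. The median difference over all tested genes was -0.004 on the log2 scale. The count fell to 358 without ZT12 replicate 4, to 175 higher and 183 lower, and to 377 without ZT0 replicate 1, of which 176 were higher.

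**Figure D1:**
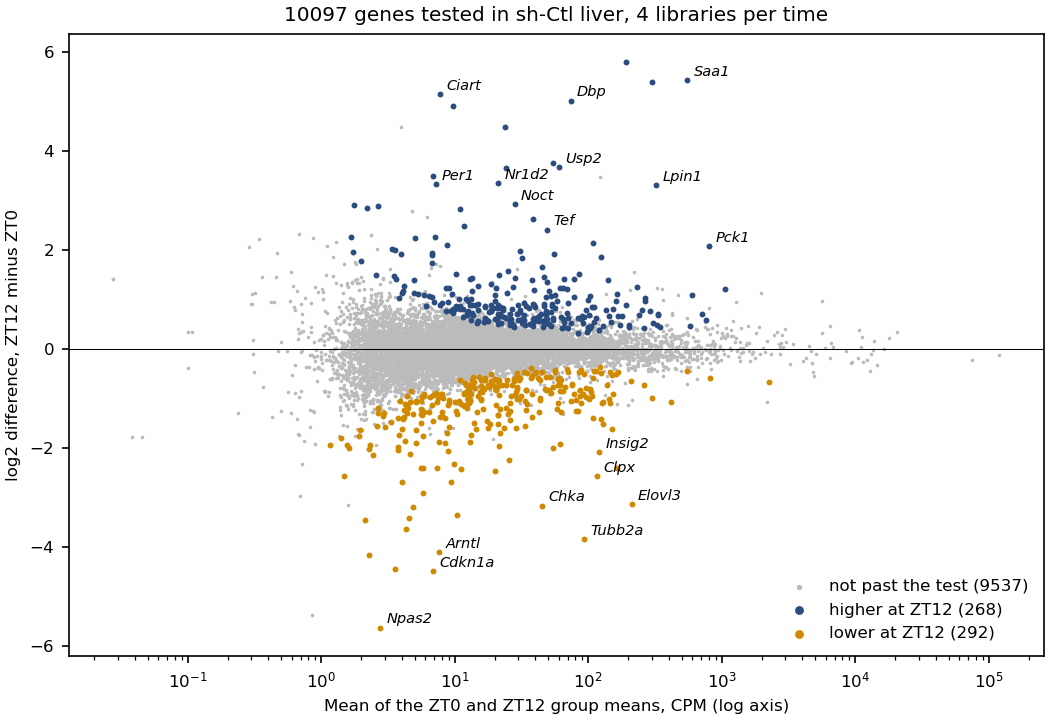
Each point is one of 10097 genes, placed by its mean level (CPM, log axis) and its log2 difference between ZT12 and ZT0 in sh-Ctl liver, with 4 libraries per time. The 268 genes higher and 292 lower at ZT12 by the edgeR test are coloured, and named clock and metabolic genes lie at both extremes.

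Arntl, Clock and Npas2, of the activating arm of the clock, were low at dusk. Arntl (ENSMUSG00000055116, chr7:113207465-113314126), the activator on which the loop depends, was at 17.1, 14.8, 12.8 and 13.5 CPM in the ZT0 libraries and at 1.77, 0.306, 0.314 and 0.545 CPM in the ZT12 libraries, each in the order of replicates 1 to 4. Every dawn library was above every dusk library, and the difference was -4.11 ± 0.45 (log2, SE, edgeR adjusted p = 7.69e-10). Its partner Clock fell from 28.4, 35.7, 20.4 and 35.6 to 12.4, 11.0, 13.5 and 11.4 CPM, a 2.52-fold difference (-1.33 ± 0.23, adjusted p = 2.42e-05). Npas2, the alternative partner, was at 2.51, 5.53, 8.74 and 5.09 CPM at ZT0, which came from 53 UMIs, and only 1 UMI was found in the ZT12 libraries, in replicate 2. The groups did not overlap and the gene passed the test (edgeR adjusted p = 2.41e-07), but its fitted difference of -5.62 depends on how counts near 0 are treated. Rora, an activator at the RORE, was at 48.4 to 77.7 and 56.1 to 67.6 CPM and did not pass (-0.10 ± 0.18, adjusted p = 0.85).

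The repressing arm was mostly high at dusk. Of 9 repressors tested, 6 rose and 1 fell, with a median of 2.23 (log2), and without ZT12 replicate 2 it was 5 and 1. These counts stand beside 2.65% higher and 2.89% lower among all genes tested. Ciart, a repressor of the activator pair, was at 0.418, 0, 0 and 1.09 CPM at ZT0 and at 19.4, 14.4, 16.0 and 11.2 CPM at ZT12. It was thus near the detection limit at dawn (4 UMIs over 4 libraries) and found in all dusk libraries (227 UMIs), with a difference of 5.14 ± 0.56 (log2, SE, edgeR adjusted p = 4.98e-10). Per1 rose from 1.25, 1.84, 0.583 and 1.09 to 14.3, 15.9, 9.41 and 13.1 CPM, a 10.1-fold difference (3.33 ± 0.48, adjusted p = 8.54e-07). Per3 rose 11.3-fold, from 1.67, 1.54, 1.17 and 0 to 15.2, 12.6, 12.2 and 10.6 CPM (3.50 ± 0.47, adjusted p = 1.67e-07). Per2, by contrast with these 2, overlapped between the times at 3.76, 11.7, 5.25 and 10.2 and 23.6, 11.9, 20.7 and 11.2 CPM, and its difference of 1.07 ± 0.45 did not pass (adjusted p = 0.171).

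The REV-ERB genes rose as well, and the Cry genes moved apart. Nr1d2 was at 2.92, 4.00, 4.08 and 4.00 CPM at ZT0 and at 42.0, 32.8, 34.5 and 45.5 CPM at ZT12, a narrow spread at both times around a 10.2-fold rise (3.35 ± 0.29, log2, SE, edgeR adjusted p = 7.67e-13). Nr1d1 rose from 1.25, 2.46, 0.583 and 2.18 to 8.83, 9.50, 9.72 and 5.72 CPM (2.23 ± 0.62, adjusted p = 0.0194), with a call that ended without ZT0 replicate 1 or 3 (edgeR adjusted p 0.0571 to 0.0646). Cry1 was the one repressor that fell, from 13.8, 12.9, 10.5 and 11.6 to 2.21, 4.29, 5.02 and 7.36 CPM (-1.40 ± 0.31, adjusted p = 0.00146). Cry2 rose 1.74-fold, with no overlap (5.25 to 10.6 and 12.3 to 18.4 CPM), but the call ended without ZT0 replicate 1 or 3 or ZT12 replicate 1 or 2 (edgeR adjusted p 0.0706 to 0.128). Bhlhe40, which represses at E-boxes, did not pass (0.56 ± 0.29, adjusted p = 0.3), and Bhlhe41 was too low to test, with 1 UMI at ZT0 and 12 at ZT12.

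**Figure D2:**
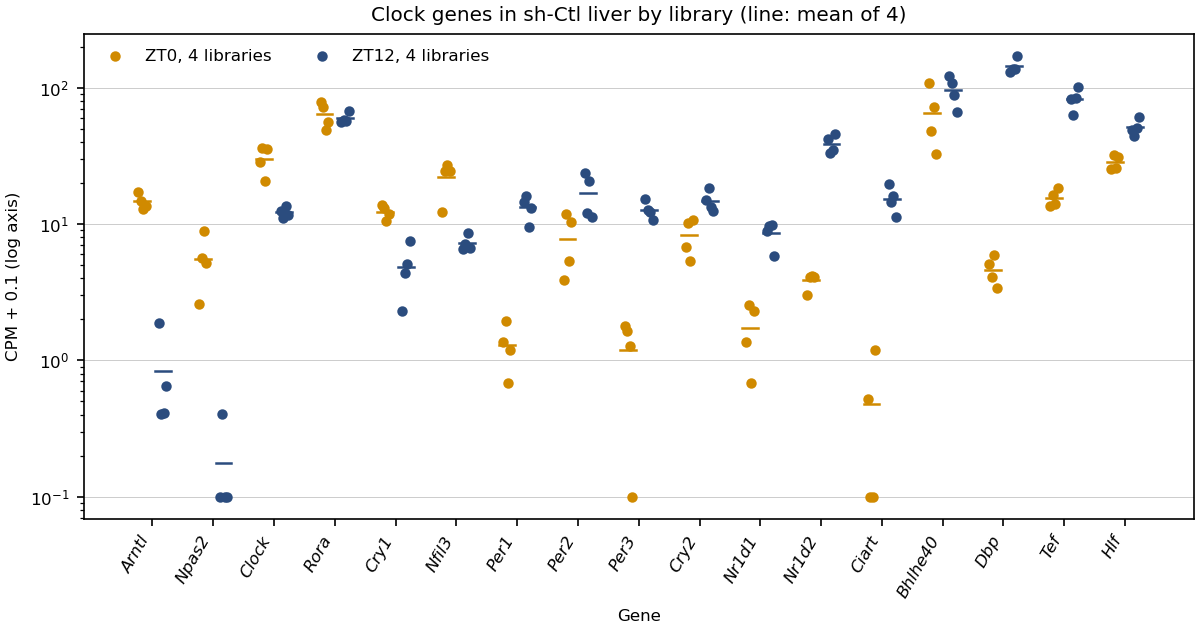
CPM plus 0.1 (log axis) of clock genes in each sh-Ctl library, with ZT0 in orange, ZT12 in blue and a line at the mean of 4. Arntl, Npas2, Clock, Cry1 and Nfil3 are higher at ZT0, Rora, Per2 and Bhlhe40 overlap between the times, and the other 9 genes are higher at ZT12.

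The PAR bZIP factors rose together, and the D-box repressor Nfil3 fell. Dbp (ENSMUSG00000059824, chr7:45705088-45710203) was at 5.01, 4.00, 5.83 and 3.27 CPM at ZT0 and at 129.6, 136, 136 and 171 CPM at ZT12. This 32.3-fold rise (5.01 ± 0.45, log2, SE, edgeR adjusted p = 1.3e-11) rests on 44 UMIs at dawn and 2092 at dusk. Tef rose 5.31-fold, from 13.4, 16.3, 14.0 and 18.2 to 83.0, 62.8, 83.8 and 102 CPM (2.41 ± 0.24, adjusted p = 9.42e-11). Hlf rose least of these, 1.79-fold, with 25.1 to 32.0 and 44.4 to 60.5 CPM (0.84 ± 0.17, adjusted p = 0.000391). Nfil3 was at 12.1, 24.3, 26.8 and 24.4 CPM at ZT0 and at 6.40, 7.04, 8.47 and 6.54 CPM at ZT12, lower in every dusk library (-1.62 ± 0.32, adjusted p = 0.000345). Each of these 4 calls held on leaving out any of the 8 libraries.

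Genes long known as clock outputs were mostly higher at dusk. Of 11 tested, 8 rose and 1 fell, with a median of 1.97 (log2), beside 2.65% higher and 2.89% lower among all genes tested. The members of this list were chosen with earlier results of these data known. Usp2, a deubiquitinase, was at 6.27, 11.7, 2.91 and 12.0 CPM at ZT0 and at 111, 91.0, 131 and 113 CPM at ZT12. It had the smallest p of all genes in the comparison (3.67 ± 0.30, log2, SE, edgeR adjusted p = 7.34e-13). Rgs16, a brake on G-protein signalling, rose from 0.836, 0.615, 1.17 and 0 to 35.5, 11.9, 11.0 and 16.1 CPM (4.90 ± 1.03, edgeR adjusted p = 0.00111). Of the libraries compared here, ZT12 replicate 1 was the highest. Over the day its highest mean was at ZT6, with a wide spread (21.7 ± 21.2 CPM, mean ± SD). Lpin1, a phosphatidate phosphatase of triglyceride synthesis and a transcriptional coactivator, was at 112, 59.3, 38.5 and 26.2 CPM at ZT0 and at 1107, 270.2, 386 and 574 CPM at ZT12. Its dusk libraries differed widely among themselves, yet all exceeded every dawn library (3.31 ± 0.47, adjusted p = 1.37e-06). Wee1, a kinase that holds cells before mitosis, rose 5.55-fold and Por, the electron donor of the cytochromes P450, 3.60-fold (44.3 to 71.3 and 138 to 241 CPM). Coq10b, which binds coenzyme Q, rose 3.92-fold and Nampt, the rate-limiting enzyme of NAD salvage, 2.34-fold (37.9 to 39.3 and 48.7 to 117 CPM). The exception was Elovl3, a fatty acid elongase, which fell from 346, 419, 434 and 318 to 29.4, 68.6, 40.8 and 34.3 CPM (-3.14 ± 0.41, adjusted p = 1.85e-07).

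Other large rises came from genes with varied roles. Noct (nocturnin), a phosphatase known for its rhythm in liver, rose from 3.76, 9.22, 8.74 and 4.36 to 59.2, 33.7, 50.2 and 55.3 CPM (2.93 ± 0.46, log2, SE, edgeR adjusted p = 1.06e-05). Gpcpd1, which breaks down glycerophosphocholine, rose 6.18-fold, from 16.3, 9.22, 8.74 and 8.37 to 87.2, 56.4, 67.1 and 52.6 CPM (2.63 ± 0.48, adjusted p = 0.000143). Both genes were separated in all 8 libraries. Pcsk4, a proprotein convertase, rose 7.11-fold with 0.836 to 4.61 and 6.74 to 27.8 CPM (adjusted p = 8.92e-07). Mfsd2a, a lysophospholipid transporter, lay at 1.09 to 4.00 CPM at ZT0 and 6.13 to 16.1 CPM at ZT12 (2.26 ± 0.66, adjusted p = 0.0288), and its call ended without ZT0 replicate 1, 3 or 4 or ZT12 replicate 1 or 4 (edgeR adjusted p 0.0645 to 0.101).

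The largest falls included a cell cycle inhibitor, a tubulin, a choline kinase and part of a mitochondrial protease. Cdkn1a (ENSMUSG00000023067, chr17:29090976-29100727), which encodes the cyclin kinase inhibitor p21, was at 19.6, 13.8, 12.2 and 6.91 CPM at ZT0 and at 0.442, 0.306, 0.627 and 0.818 CPM at ZT12. The dawn libraries spread widely but stayed above all dusk libraries, which held 8 UMIs in all (-4.49 ± 0.60, log2, SE, edgeR adjusted p = 1.85e-07). Tubb2a, a beta-tubulin, fell 14.3-fold, from 249.5, 135, 174 and 134 to 8.17, 9.19, 15.1 and 16.1 CPM (-3.84 ± 0.44, adjusted p = 1.04e-08). Chka, the choline kinase that opens phosphatidylcholine synthesis, was at 119, 92.5, 56.0 and 60.0 CPM at ZT0 and at 13.9, 8.58, 6.90 and 6.54 CPM at ZT12 (-3.16 ± 0.35, adjusted p = 5.18e-09). Clpx, part of a mitochondrial protease, fell 5.89-fold with little spread, from 187, 234, 198 and 172 to 32.5, 38.9, 33.6 and 29.4 CPM (-2.56 ± 0.24, adjusted p = 1.71e-11).

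Further falls of this size were Spon2, a matrix protein (7.51-fold), and Lgalsl, a galectin-like protein (5.55-fold). Denn2b, a DENN domain protein, fell 5.34-fold and Lrfn3, an adhesion protein, 5.32-fold. Aqp8, a water channel of the bile canaliculus, fell from 358, 292, 351 and 94.6 to 35.1, 72.9, 52.7 and 46.6 CPM (-2.40 ± 0.47, log2, SE, edgeR adjusted p = 0.000453), with ZT0 replicate 4 well below the other dawn libraries but above every dusk one. Tjp3, of the tight junction, fell 5.02-fold (13.8 to 19.8 and 1.09 to 5.82 CPM, adjusted p = 1.79e-08). All 15 of the largest falls kept their calls on leaving out any of the 8 libraries.

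Genes of the fasting liver were mixed. The largest rise by fold in this list was that of Pck1, whose call ended without one of the dawn libraries. Of 15 genes of gluconeogenesis and the switch between fasting and insulin, 3 rose and 3 fell, with a median of 0.12 (log2), and without ZT12 replicate 2 it was 3 and 1. Among all genes tested, 2.65% rose and 2.89% fell. Pck1, which commits carbon to glucose, was at 354, 417, 171 and 285 CPM at ZT0 and at 1368, 1266, 1104 and 1478 CPM at ZT12. Each dusk library was above each dawn library (2.08 ± 0.54, log2, SE, edgeR adjusted p = 0.0107). Without ZT0 replicate 3 the call ended (edgeR adjusted p = 0.0532), with a difference of 1.89. Foxo1, the transcription factor that insulin keeps out of the nucleus, rose 1.54-fold (27.6 to 33.8 and 39.5 to 52.1 CPM, adjusted p = 0.012), a call that held on leaving out any library. Slc37a4, which carries glucose 6-phosphate into the endoplasmic reticulum, rose 1.60-fold, and its call ended without ZT0 replicate 2 or 4 or ZT12 replicate 4 (edgeR adjusted p 0.0519 to 0.0579). Among genes that fell, Irs2, an adaptor of the insulin receptor, was at 10.0 to 21.0 and 6.43 to 8.39 CPM, with a call that ended without ZT0 replicate 2 or 3 or ZT12 replicate 2, 3 or 4 (edgeR adjusted p 0.0569 to 0.0816). Pdk4, which brakes pyruvate dehydrogenase, rested on 27 and 6 UMIs, and its call ended without ZT0 replicate 2 or ZT12 replicate 3 or 4 (edgeR adjusted p 0.0631 to 0.184). Irs1, another such adaptor, fell as well (-0.80, log2, adjusted p = 0.0487), with a call that ended without ZT0 replicate 2 or 4 or ZT12 replicate 1 or 2 (edgeR adjusted p 0.139 to 0.268).

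In the glycogen list 3 of 16 genes rose and 1 fell (median 0.12, log2). This count and that of glycolysis below stand beside 2.65% higher and 2.89% lower among all genes tested. Gys2, the liver glycogen synthase, was at 105, 100.2, 106 and 105 CPM at ZT0 and at 254, 123, 211 and 305 CPM at ZT12. The dawn values lay close together and all dusk values were higher (1.10 ± 0.19, SE, edgeR adjusted p = 4.42e-05). Stbd1, which anchors glycogen to membranes, rose 1.70-fold, and Ugp2, which makes the UDP-glucose for glycogen, rose 1.62-fold with a call that ended without ZT12 replicate 4 (edgeR adjusted p = 0.0853). Ppp1r3c, a scaffold that activates glycogen synthase, went the other way, from 23.8, 73.2, 36.7 and 36.0 to 15.5, 7.04, 10.0 and 3.27 CPM (-2.23 ± 0.41, adjusted p = 0.000155). Of 14 genes of glycolysis and fructose use, 1 rose: Slc2a2, the glucose transporter of hepatocytes, with 156 to 202 CPM at ZT0 and 261 to 396 CPM at ZT12 (0.79 ± 0.16, adjusted p = 0.000695).

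Several sterol genes were lower at dusk. Of 24 genes of cholesterol synthesis and uptake, 5 fell and 1 rose, with a median of -0.56 (log2) against -0.004 for all genes. Among all genes tested, 2.89% fell and 2.65% rose. Insig2, which holds the sterol sensor SCAP in the endoplasmic reticulum, was at 243, 206, 186 and 141 CPM at ZT0 and at 34.0, 46.2, 64.9 and 39.8 CPM at ZT12 (-2.07 ± 0.22, SE, edgeR adjusted p = 7.69e-10). Its groups were far apart and the call held on leaving out any library. Pmvk, of the mevalonate pathway, fell from 79.8, 56.0, 56.0 and 26.6 to 19.6, 23.9, 16.9 and 22.9 CPM (-1.38 ± 0.31, adjusted p = 0.00229). Hmgcs1, which makes HMG-CoA, fell 2.86-fold, and its call ended without ZT0 replicate 1 or ZT12 replicate 1 or 4 (edgeR adjusted p 0.064 to 0.115). Lss, the lanosterol synthase, fell 2.82-fold, with a call that ended without ZT0 replicate 1 or ZT12 replicate 3 or 4 (edgeR adjusted p 0.0577 to 0.22). Fdft1, the squalene synthase, fell 1.82-fold, with a call that ended without ZT0 replicate 1 or 3 or ZT12 replicate 1 or 4 (edgeR adjusted p 0.0679 to 0.129). Stard4, a sterol carrier, was the member that rose (0.61, log2, adjusted p = 0.0265), with a call that ended on leaving out any single library other than ZT12 replicate 2 or ZT12 replicate 3 (edgeR adjusted p 0.053 to 0.239).

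In a list of sterol and bile acid transporters and of bile acid signalling genes (FXR-SHP), 4 of 14 were higher at dusk and none lower (median 0.35, log2). Without ZT12 replicate 2, 2 of 14 were higher. The counts of this list and of bile acid synthesis below stand beside 2.65% higher and 2.89% lower among all genes tested. Abcg8 and Abcg5 form the sterol exporter of the bile canaliculus. Abcg8 rose from 18.8, 23.7, 21.0 and 20.7 to 43.0, 55.4, 58.7 and 64.0 CPM (1.39 ± 0.22, SE, edgeR adjusted p = 5.76e-06). Abcg5 rose from 8.36, 13.2, 9.32 and 17.5 to 33.6, 29.4, 25.1 and 27.0 CPM (1.22 ± 0.28, adjusted p = 0.00273). The 2 genes overlap at their starts on opposite strands of chromosome 17, and all dusk libraries exceeded all dawn ones for both. The uptake carrier Slco1b2 (0.57 ± 0.18) had a call that ended without ZT0 replicate 1 or 3 or ZT12 replicate 1, 2 or 3 (edgeR adjusted p 0.0698 to 0.188). Klb, the co-receptor of FGF15 signalling (0.81 ± 0.26), had a call that ended on leaving out any single library other than ZT0 replicate 4 or ZT12 replicate 3 (edgeR adjusted p 0.0527 to 0.242). In bile acid synthesis 2 of 11 fell (3 without ZT12 replicate 2): Baat, which conjugates bile acids (-0.51 ± 0.13, adjusted p = 0.00781), and Acox2, of side chain oxidation (-0.47 ± 0.13), whose call ended without ZT0 replicate 1 or 3 or ZT12 replicate 1 or 4 (edgeR adjusted p 0.0744 to 0.178).

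Lipid lists held single genes with large differences in either direction. Their counts are to be read beside the 2.65% higher and 2.89% lower among all genes tested. In triglyceride synthesis and droplets 3 of 12 rose and 2 fell (median -0.13, log2), and 3 and 1 without ZT12 replicate 2. Besides Lpin1, its relative Lpin2 rose from 43.9, 58.7, 32.6 and 34.5 to 129.6, 95.3, 116 and 115 CPM (1.41 ± 0.29, SE, edgeR adjusted p = 0.001). Pnpla2, the adipose triglyceride lipase, rose 1.85-fold, and its call ended without ZT0 replicate 1 (edgeR adjusted p = 0.0587). Agpat2, of phosphatidate synthesis, fell 1.66-fold, with a call that ended without ZT0 replicate 3 or ZT12 replicate 1 or 4 (edgeR adjusted p 0.0528 to 0.0837), and Plin2, the droplet coat protein, fell 1.56-fold, with a call that ended on leaving out any single library other than ZT12 replicate 3 (edgeR adjusted p 0.0552 to 0.208). Cpt1a, the gate of mitochondrial fatty acid entry, rose from 78.2, 103, 118 and 135 to 205, 207, 211 and 223 CPM (0.96 ± 0.17, adjusted p = 7.42e-05), with dusk libraries within a narrow range above all dawn ones. It was one of 2 risers among 18 fatty acid oxidation genes (median 0.02) and one of 2 risers, beside 2 falls, among 21 PPARα targets (median 0.03), where 1 fall was left without ZT12 replicate 2. The others were Eci2, an enoyl-CoA isomerase (0.68 ± 0.19), with a call that ended without ZT0 replicate 1 or 2 or ZT12 replicate 4 (edgeR adjusted p 0.0579 to 0.119), and Ppara itself (0.70 ± 0.20), with a call that ended without ZT0 replicate 1 or 3 or ZT12 replicate 3 (edgeR adjusted p 0.0564 to 0.141). In de novo lipogenesis, 1 of 14 rose and 1 fell (median -0.34). Fads2, a desaturase, rose 1.59-fold with a call that ended without ZT0 replicate 1, 2 or 4 or ZT12 replicate 3 or 4 (edgeR adjusted p 0.0579 to 0.136), and Elovl5, an elongase, fell 2.13-fold with a call that ended without ZT12 replicate 1 (edgeR adjusted p = 0.0561). Fasn, the fatty acid synthase, did not pass (-0.45, log2, adjusted p = 0.741).

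Glucocorticoid targets and metallothioneins gave 6 rises and 1 fall among 13 genes (median 0.904, log2), and 4 and 1 without ZT12 replicate 2. Among all genes tested the shares were 2.65% higher and 2.89% lower. Fkbp5, a chaperone induced by the glucocorticoid receptor, was at 12.1, 12.0, 11.7 and 14.6 CPM at ZT0 and at 52.5, 20.8, 31.1 and 45.8 CPM at ZT12 (1.58 ± 0.26, SE, edgeR adjusted p = 1.34e-05). Cebpd, a bZIP transcription factor, rose from 11.3, 6.46, 8.16 and 9.46 to 19.6, 27.6, 15.7 and 21.8 CPM (1.27 ± 0.24, adjusted p = 0.000198). In both the groups did not overlap and the call held on leaving out any library. Per1, described above, is also counted here, as is Cdkn1a, the one fall. Dusp1, a MAP kinase phosphatase (0.91 ± 0.28), had a call that ended without ZT0 replicate 1, 2 or 4 or ZT12 replicate 1 or 4 (edgeR adjusted p 0.109 to 0.338).

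The metallothionein and acute-phase calls rested on ZT12 replicate 2. Mt1, which binds zinc and copper, was at 7.94, 6.76, 8.16 and 7.27 CPM at ZT0 and at 22.1, 356, 11.6 and 14.7 CPM at ZT12, and its call ended without ZT12 replicate 2 (edgeR adjusted p = 0.586), with a difference of 1.13 (log2). Mt2 had a difference of 3.65 with all libraries and of 0.388 without ZT12 replicate 2, and its call ended without ZT0 replicate 1, 2, 3 or 4 or ZT12 replicate 2 (edgeR adjusted p 0.0825 to 0.923). Saa1, a serum amyloid, was at 31.8, 23.4, 22.1 and 22.9 CPM at ZT0 and at 30.2, 4204, 44.5 and 47.7 CPM at ZT12. Replicate 2 stood far above all other libraries of these times, and ZT12 replicate 1 lay within the dawn range. Without replicate 2 the difference was 0.701 (edgeR adjusted p = 0.861). Orm2, an acid glycoprotein, and Lcn2, a siderophore binder, turned to -0.643 and -0.157 without it (edgeR adjusted p = 0.904 and 0.989), and Saa2 dropped to 0.35 (0.958). The 4 acute-phase calls also ended without any one of the 4 ZT0 libraries. The acute-phase list as a whole, 25 genes, had 4 rises and no fall with a median of 0.818, and no rise and 1 fall with a median of -0.049 without that library.

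Respiratory chain, ribosomal, proteasome and some smaller sets gave few or no calls between dawn and dusk. At the 5.55% called among all genes tested, few calls would be found in any set as small as the smaller ones. None of 84 nuclear-encoded subunits of the respiratory complexes and ATP synthase passed (median -0.077, log2), nor did any of 78 cytosolic ribosomal protein genes (-0.115), 37 proteasome genes (0.001) or 16 apolipoprotein genes (-0.053). Of 75 mitochondrial ribosomal protein genes, 3 fell and none rose (median -0.03), a share not far from the 5.55% of all genes: Mrpl36 (-0.62 ± 0.14, SE), Mrpl34 (-0.60 ± 0.15) and Mrpl4 (-0.96 ± 0.24), the call of the last ending without ZT12 replicate 4 (edgeR adjusted p = 0.0795). No urea cycle gene of 12 and no integrated stress response gene of 9 passed, and in the TCA cycle 1 of 22 did, Fh1 (fumarase, 0.44 ± 0.13), whose call ended on leaving out any single library other than ZT12 replicate 2 (edgeR adjusted p 0.0531 to 0.143). These counts are edgeR calls, and small differences could be missed: on simulated counts the test found 24% of genes changed 1.5-fold and 88% of genes changed 2-fold. The simulation gave every gene the same spread and changed only genes of higher count. It therefore does not give the share found among genes of low count or wide spread.

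Among heat shock proteins and their helpers 3 of 20 fell and none rose (median -0.348, log2), beside 2.89% lower and 2.65% higher among all genes tested. Hspb1, a small heat shock protein, fell from 28.0, 19.4, 32.0 and 29.8 to 7.29, 9.50, 12.9 and 8.45 CPM (-1.52 ± 0.36, SE, edgeR adjusted p = 0.00541). Fkbp4, a co-chaperone of steroid receptors, fell from 98.2, 93.1, 96.2 and 84.7 to 51.7, 58.2, 65.6 and 52.9 CPM (-0.71 ± 0.14, adjusted p = 0.00037). Both were lower in every dusk library, and both calls held on leaving out any library. Hsp90aa1, the inducible HSP90, was at 80.4 to 156 and 49.9 to 65.2 CPM, with a call that ended without ZT0 replicate 1 or 4 or ZT12 replicate 1 or 4 (edgeR adjusted p 0.0707 to 0.0943). Of 23 ER chaperones and unfolded protein response genes 1 rose: Herpud1, of ER-associated degradation (0.96 ± 0.26), whose call ended without ZT0 replicate 1 or 3 or ZT12 replicate 4 (edgeR adjusted p 0.0615 to 0.0993). In amino acid breakdown 2 of 26 rose and 1 fell, beside 2.65% and 2.89% of all genes tested, and without ZT12 replicate 2 it was 3 and 1. Gldc, of glycine cleavage, fell from 82.3, 85.5, 76.9 and 83.7 to 41.3, 42.3, 31.4 and 26.4 CPM (-1.22 ± 0.14, adjusted p = 5.18e-09), and Sds, the serine dehydratase, rose 2.07-fold (36.4 to 67.9 and 73.8 to 130.0 CPM, adjusted p = 0.00221).

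**Figure D3:**
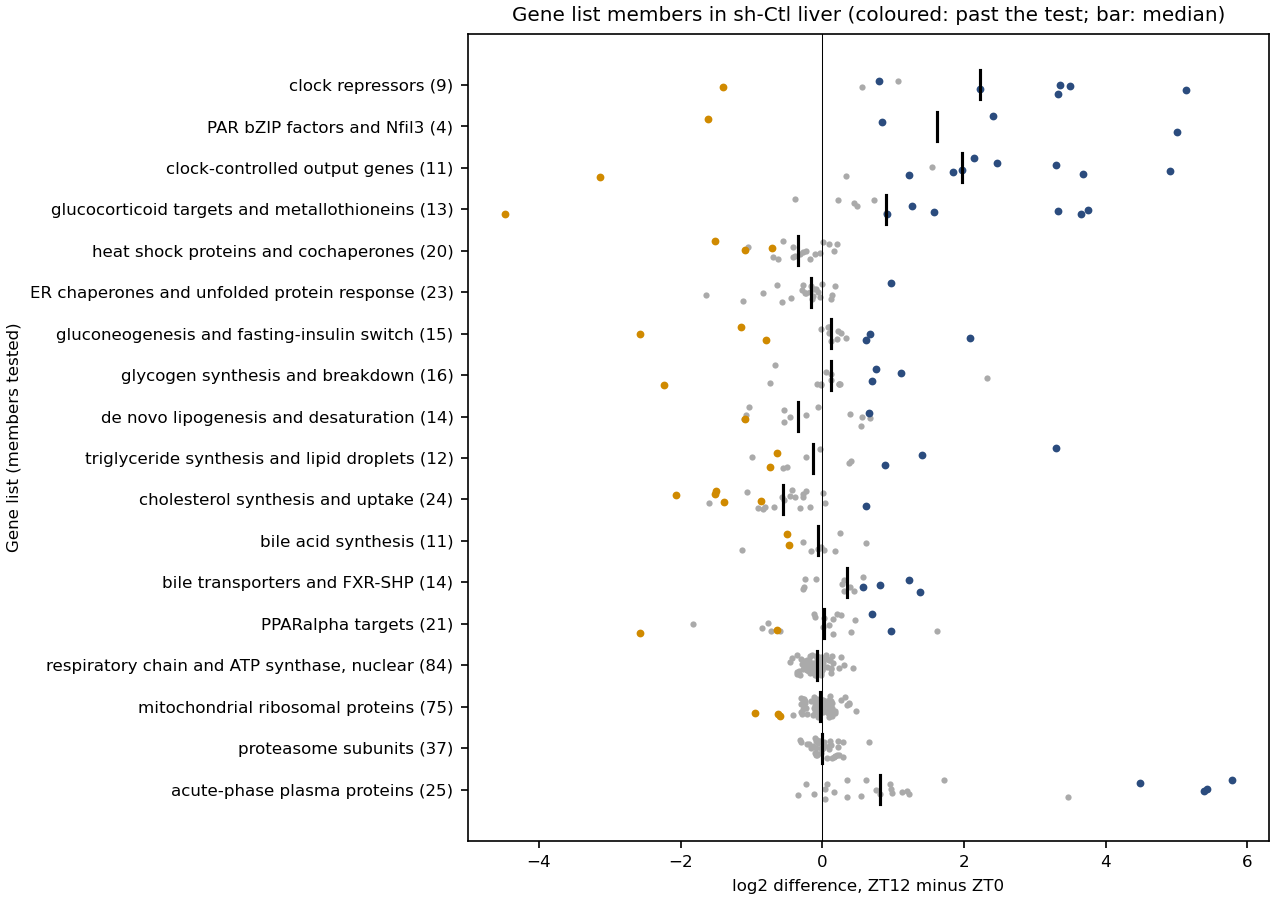
Log2 differences (ZT12 minus ZT0, sh-Ctl) of the members of 18 gene lists, one point per gene, with genes past the edgeR test in blue (higher at ZT12) or orange (lower), others in grey, and a bar at each list's median. The clock lists spread to both sides, cholesterol synthesis leans to the left, and respiratory chain, mitochondrial ribosome and proteasome genes stay near 0.

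Several smaller lists held 1 or 2 genes that passed, counts to be read beside the 2.65% higher and 2.89% lower among all genes tested. Ccne1, a cyclin of the entry into S phase, rose from 5 UMIs at ZT0 to 55 at ZT12 (2.85 ± 0.60, log2, SE, edgeR adjusted p = 0.000965) and was the only one of 15 cell cycle genes to pass. Bnip3, a mitophagy receptor, rose 1.59-fold (adjusted p = 0.000695), one of 2 rises among 15 autophagy and lysosome genes beside Ulk1, the kinase that starts autophagy, whose call ended without ZT0 replicate 2 or 4 or ZT12 replicate 4 (edgeR adjusted p 0.0551 to 0.077). Amd1, of polyamine synthesis, rose 2.16-fold, with a call that ended without ZT12 replicate 4 (edgeR adjusted p = 0.063). Stat5b, which carries growth hormone signals, fell 1.55-fold, with a call that ended without ZT0 replicate 3 or ZT12 replicate 1 (edgeR adjusted p 0.0716 to 0.0906). It and Elovl3, described above, were the 2 falls in a list of 18 growth hormone axis and male-biased genes. Of 17 cytochrome P450 and xenobiotic genes 2 rose, Por and Cyp2a5, the latter with a call that ended on leaving out any single library other than ZT12 replicate 2 (edgeR adjusted p 0.0534 to 0.107). Gnl3 was the 1 of 28 ribosome biogenesis genes to rise (0.84 ± 0.24), with a call that ended without ZT0 replicate 3 or ZT12 replicate 1 or 4 (edgeR adjusted p 0.0754 to 0.0992). Nfe2l2 was the 1 of 15 NRF2 pathway genes to fall (-0.56 ± 0.18), with a call that ended on leaving out any single library other than ZT0 replicate 3 or ZT12 replicate 3 (edgeR adjusted p 0.0688 to 0.168). Without ZT12 replicate 2 there were 3 rises of 18 in the P450 list, and no NRF2 pathway gene passed. None of 12 genes of malonyl-CoA handling, 7 mitochondrially encoded genes or 2 cold-inducible genes passed with or without that library. None of 11 iron handling genes passed with all libraries, and 1 did without ZT12 replicate 2: Slc39a14, a carrier of zinc, iron and manganese, with 0.578 (log2, edgeR adjusted p = 0.0494) against 0.51 (adjusted p = 0.0658) with all libraries.

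Markers of other cell types were read beside these groups. The numbers of markers that passed stand beside 5.55% of all genes tested. In bulk tissue, fewer cells of a type and less RNA per cell cannot be told apart. None of 13 sinusoidal endothelial markers passed (median -0.291, log2, summed level 273 to 333 CPM at ZT0 and 172 to 290 CPM at ZT12), nor did any of 12 Kupffer cell markers (median 0.054, 152 to 205 and 176 to 253 CPM). Among 13 stellate cell and fibroblast markers 1 fell, Dcn, a matrix proteoglycan (-0.53 ± 0.15, SE, edgeR adjusted p = 0.0255), with a call that ended without ZT0 replicate 2 or 4 or ZT12 replicate 2, 3 or 4 (edgeR adjusted p 0.0571 to 0.125), and the list's median was -0.484 (summed level 301 to 363 and 191 to 288 CPM). Without ZT12 replicate 2 the stellate and endothelial medians were -0.341 and -0.182. Of 3 cholangiocyte markers tested, Sox9 fell from 28.4, 36.6, 40.2 and 31.6 to 10.4, 10.7, 8.78 and 5.18 CPM (-1.95 ± 0.30, adjusted p = 4.53e-06), while Epcam (-0.93 ± 0.52, adjusted p = 0.347) and Spp1 (0.13 ± 0.35, adjusted p = 0.909) did not pass. Krt19, Krt7 and Cldn7 were too low to test. Red blood cell genes (170 to 816 and 179 to 1660 CPM) and pancreas enzyme genes (11.7 to 24.7 and 12.6 to 39.5 CPM) varied widely within each time and none passed. Of hepatocyte markers 1 of 10, Hnf4a, rose (0.52 ± 0.14), with a call that ended without ZT0 replicate 1 or 3 or ZT12 replicate 1 or 4 (edgeR adjusted p 0.0532 to 0.124). The part of cell makeup in the results above was not tested.

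The other 6 sampling times in sh-Ctl liver show where dawn and dusk lie in each gene's day. Of the 268 genes higher at ZT12, 168 had their highest mean of all 8 times at ZT12, 50 at ZT9 and 41 at ZT15, and 158 had their lowest at ZT0. Of the 292 lower genes, 178 had their highest mean at ZT0 and 55 at ZT3, and 168 had their lowest at ZT12 and 66 at ZT15. These shares follow in part from the choice of genes and were not tested. Dbp was already past its maximum at ZT12, with 188 ± 28.1 CPM at ZT9 and 143 ± 18.7 CPM at ZT12 (mean ± SD, n = 4 each). Nr1d1 was at 36.5 ± 15.9 CPM at ZT9 and had come down to 8.44 ± 1.85 CPM at ZT12, whereas Per1 was at its highest at ZT12, with 13.2 ± 2.78 CPM. Per2, which did not pass between ZT0 and ZT12, was highest at ZT15, with 30.7 ± 14.9 CPM, so that its larger daily difference lies outside the pair of times compared. Lpin1 peaked at ZT12 (585 ± 370.4 CPM, against 136 ± 89.3 at ZT9 and 170.0 ± 77.1 at ZT15), Gys2 at ZT15 (322 ± 93.4) and Insig2 at ZT0 (194 ± 42.5).

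**Figure D4:**
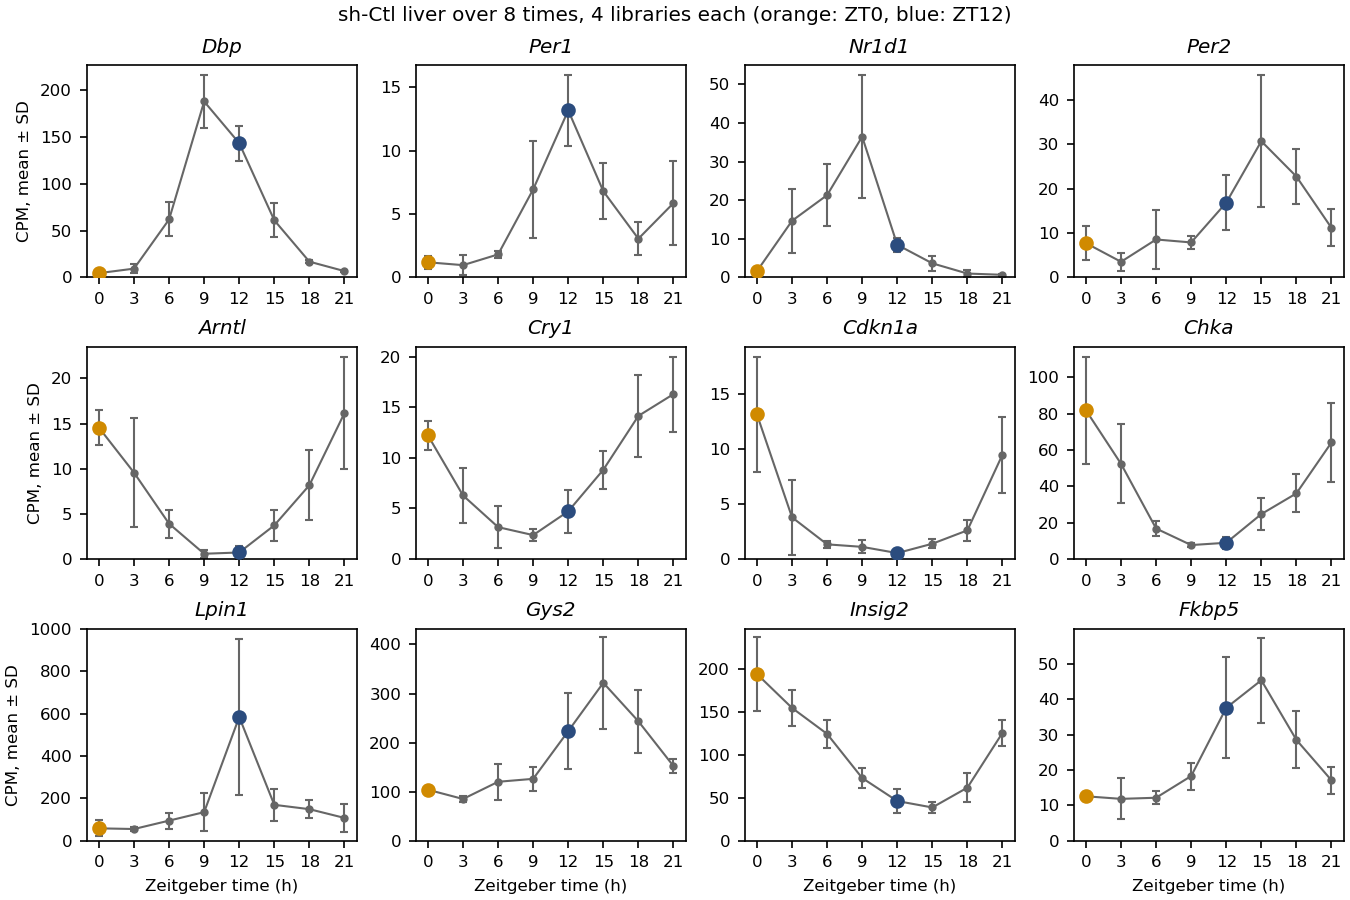
CPM (mean ± SD, 4 libraries per point) of 12 genes over 8 zeitgeber times (h) in sh-Ctl liver, with ZT0 in orange and ZT12 in blue. Per1 and Lpin1 are highest at ZT12, Dbp and Nr1d1 at ZT9, Per2, Gys2 and Fkbp5 at ZT15, Cdkn1a, Chka and Insig2 at ZT0, and Arntl and Cry1 at ZT21.

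The same pair of times was then compared in sh-Acsf3 liver, in 8 libraries that shared the fit, and so its estimates of spread, but entered none of the group means above. They held 1.64 to 9.35 M UMIs, with 17.4 to 24.9% mitochondrially encoded. Pancreas enzyme genes summed to 2968 CPM in ZT0 replicate 1 and 2625 CPM in ZT12 replicate 2, against 3.84 to 26.63 CPM in the others. The part of these in the counts was not tested, apart from leaving out single libraries. There 420 genes (4.16%) passed and 7.72% of genes had no overlap between the times. Those that passed were 223 higher and 197 lower at ZT12, or 259 and 132 when libraries were scaled by total count alone, which shifted the median of all genes to 0.081. Without sh-Acsf3 ZT0 replicate 3 the count was 238, and with only these 8 libraries in the fit it was 225. Of the 560 genes called in sh-Ctl, 517 (92.3%) had the same sign in sh-Acsf3, against 62% of all tested genes. Called in the same direction in both were 217 genes, 38.8% of the sh-Ctl calls and 51.7% of the sh-Acsf3 calls, and none was called in opposite directions. Across the 560 genes, which are not independent replicates, Pearson's r of the log2 differences was 0.845. Clock members had these differences in sh-Acsf3: Dbp 5.14 ± 0.44, Ciart 5.88 ± 0.53, Nr1d2 3.49 ± 0.30 and Arntl -3.26 ± 0.45 (log2, SE). Per2 passed in sh-Acsf3 (1.98 ± 0.48, edgeR adjusted p = 0.00778) and Cry1 did not (-0.99 ± 0.33, 0.0732). The cholesterol list, with 1 rise, 5 falls and a median of -0.56 (log2) in sh-Ctl, had 2 rises, 1 fall and a median of -0.004 in sh-Acsf3. That difference between list medians was not tested.

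A direct test of the difference between treatments called no gene by edgeR at an adjusted p of 0.05, with 668 genes at an unadjusted p under 0.05, and DESeq2 called 0, limma-voom 1, and edgeR with no gene filter 79. Without sh-Ctl ZT12 replicate 2, sh-Acsf3 ZT0 replicate 1 or sh-Acsf3 ZT12 replicate 4 edgeR called 1 gene. The smallest p belonged to Pml, a nuclear body protein, which fell in sh-Ctl from 13.8, 11.1, 11.7 and 9.82 to 3.75, 6.13, 4.39 and 3.82 CPM (-1.36 ± 0.24, adjusted p = 6.29e-05) and was at 10.8, 6.96, 5.85 and 9.07 and 11.5, 9.81, 9.24 and 6.41 CPM in sh-Acsf3. Its difference of -1.65 ± 0.35 (sh-Ctl minus sh-Acsf3, log2, SE) had an adjusted p of 0.115. Mt1 and Saa1, high in sh-Ctl ZT12 replicate 2, did not pass in sh-Acsf3 (0.70 ± 0.89 and -0.67 ± 1.33, edgeR adjusted p = 0.785 and 0.889). The targeted gene itself was at 1.47, 0.733, 1.12 and 3.40 CPM at ZT0 and 6.40, 4.73, 2.72 and 3.50 CPM at ZT12 in sh-Acsf3 (1.64 ± 0.47, adjusted p = 0.0272), while the difference from sh-Ctl did not pass (adjusted p = 0.61).

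**Figure D5:**
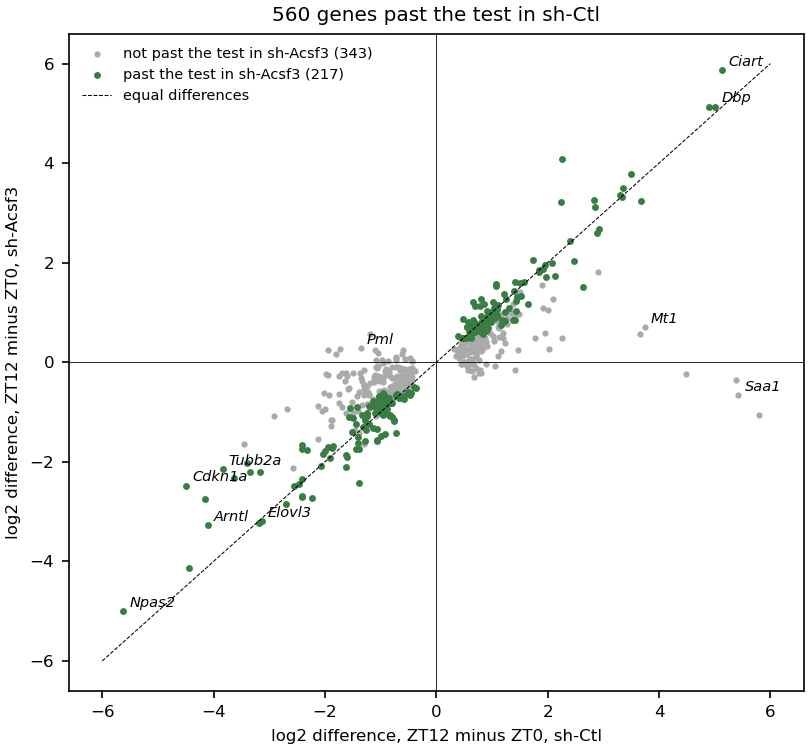
Log2 difference between ZT12 and ZT0 in sh-Acsf3 (y axis) against sh-Ctl (x axis) for the 560 genes called in sh-Ctl, with the 217 also called in sh-Acsf3 in green and a dashed line at equal differences. Clock genes lie near the line, and Saa1 and Mt1 lie far to the right of it near or below 0 on the y axis.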

How the data were processed

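The deposited values are raw UMI counts per gene in 1 table of 55487 genes and 64 libraries, in which the authors counted BRB-seq reads, per the labels, after alignment with STAR to GRCm38 (mm10), per the submitters' processing notes. Versions and annotation were not given in the sources used here. Genes were filtered with filterByExpr (minimum count 10, minimum total 15), libraries scaled by TMM, and a robust quasi-likelihood model with 16 group means over all 64 libraries (48 residual degrees of freedom) fitted in edgeR 4.0.16 (R 4.3.3). The contrast was ZT12 minus ZT0 within a treatment, and the difference of these contrasts between treatments. Adjustment was by Benjamini-Hochberg across the 10097 genes tested (threshold 0.05). CPM use TMM-scaled sizes, and fold changes are fitted ones. The script was tested on simulated counts from these libraries with 50 genes per fold size: 24% of those raised or lowered 1.5-fold were recovered, 88% at 2-fold and 100% at 3- and 4-fold, and 6 of 9897 unaltered genes were called. The altered genes were drawn from those of higher count, and all genes had the same simulated spread.

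Named genes were the 15 largest rises and falls (adjusted p under 0.05, at least 10 CPM in the higher group, no overlap), all clock members, up to 5 members with the smallest p of each other list (55 lists in all, 43 pathway and 12 marker), the 5 smallest p between treatments, and Acsf3. Listed genes named outside this rule (Irs1, Stard4, Fasn, Mt2 and others in the closing section) were chosen after their values were seen. Some genes that the rule names are not reported here. The members and lists were chosen with earlier results of these data known. Lists are described by counts and medians without a set test. Replicate pairs within each time differed by more than counting error (chi-square per degree of freedom 5.55 to 37), so none was a copy. Alternatives were RLE factors, library size only, no filter, a mean CPM of at least 5, DESeq2 1.42.0, limma-voom 3.58.1, a replicate block, fewer libraries in the fit and leaving out single libraries or those high in Saa1. List counts without ZT12 replicate 2 were added after seeing the data. Gene positions are from GENCODE M21, where 10092 of the tested identifiers were found. Promoters are from RefSeq (GRCm38.p6), where 8007 of 10096 tested symbols had a window. Plots used matplotlib 3.10.9 (Python 3.11.15).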

Additional observations from a re-analysis of the deposited data

Results flagged for a closer look

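In groups of 4, a sample was marked when its gap to the nearest other exceeded 0.829 of the group's range (Dixon's test), which chance gives in about 1 in 20 groups. Of 96 tests, 10 were marked. In ZT12 replicate 2, Saa1 was at 4200 CPM to 3 digits (others 30.2 to 47.7), Orm2 at 2330 CPM (others 6.59 to 10.6), Mt1 at 356 CPM (others 11.6 to 22.1) and Npas2 at 0.306 CPM, which is 1 UMI against 0 in the others. In ZT0 replicate 1, Saa1 was at 31.8 CPM (others 22.2 to 23.4), Nr1d2 at 2.93 CPM (others 4 to 4.08) and Gpcpd1 at 16.3 CPM (others 8.36 to 9.22). In ZT12 replicate 4, Dbp was at 171 CPM (others 130 to 136) and Rora at 67.6 CPM (others 56.1 to 57.9). In ZT12 replicate 1, Arntl was at 1.77 CPM (others 0.306 to 0.545). Apart from Saa1, Orm2 and Mt1, whose calls ended without ZT12 replicate 2, and Rora, which did not pass, the calls of these genes held on leaving out any of the 8 libraries.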

How the results depend on the processing

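The count of 560 genes in sh-Ctl ran from 461 to 671 over the other scalings, filters, tools and sets of libraries, with 390 to 559 of the same genes called again, fewest where only the 8 compared libraries entered the fit (462 called). Leaving out single libraries gave 358 to 549 genes, with 175 to 273 higher and 183 to 276 lower. In sh-Acsf3 the count was 225 (123 higher, 102 lower) with only its 8 libraries in the fit, and leaving out single libraries gave 238 to 410, with 117 to 207 higher and 121 to 203 lower. The difference between treatments had 79 calls with no gene filter and 1 with limma-voom, and 0 to 1 without single libraries. Of 104 named genes that passed, 59 kept their call on leaving out each of the 8 libraries. Leaving out single libraries, Orm2 ran from -0.643 to 5.796 and Lcn2 from -0.157 to 4.899: both reversed without ZT12 replicate 2, and also without the 4 libraries high in Saa1 (-0.638 and -0.151). Between ZT0 and ZT12, same-numbered sh-Ctl samples did not deviate together (correlations of same-numbered deviations -0.06 to -0.004). Other times were not checked in this way. Of the 4 sh-Ctl libraries high in Saa1, those at ZT12, ZT15 and ZT18 were all replicate 2, and that at ZT9 was replicate 1. What the replicate numbers share across times was not tested. A fit with a replicate block called 595 genes (278 higher, 317 lower), 547 of them shared, 435 in sh-Acsf3 and 0 between treatments. The causes were not tested. Depth limits genes near 1 CPM, which rest on a few UMIs per library.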

Other observations

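The following genes of large difference were picked after their values were seen. Il6ra, the receptor of interleukin 6, rose from 43.9, 50.4, 34.4 and 46.2 to 127, 116, 113 and 148 CPM (1.51 ± 0.26, log2, SE, edgeR adjusted p = 3.95e-05). Slc7a2, a carrier of cationic amino acids, rose 2.63-fold (54.9 to 118 and 171 to 224 CPM) and Slc38a2, a carrier of neutral ones, 2.67-fold (29.1 to 46.9 and 70.0 to 112 CPM), with no overlap for either. The transcription factors Foxo3, Cebpb and Klf13 rose 2.47-, 2.36- and 3.13-fold. Upp2, a uridine phosphorylase, rose from 42.6, 54.7, 36.7 and 26.2 to 198, 122, 175 and 212 CPM (2.13 ± 0.31, adjusted p = 1.95e-06).

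On the falling side, Cldn1, a claudin of the tight junction, was at 75.2, 89.8, 95.6 and 87.3 CPM at ZT0 and at 14.8, 42.6, 18.8 and 11.2 CPM at ZT12 (-2.01 ± 0.21, log2, SE, edgeR adjusted p = 4.98e-10). Avpr1a, the vasopressin receptor of liver, fell from 18.4, 23.4, 15.7 and 23.3 to 3.97, 9.19, 4.39 and 4.91 CPM (-1.88 ± 0.27, adjusted p = 3.6e-07). Coq8a, of coenzyme Q synthesis, fell 3.07-fold (168 to 278 and 55.0 to 113 CPM), Slc30a10, a manganese exporter, 3.04-fold, Pnp, a purine phosphorylase, 2.38-fold, and Fpgs, which retains folates in the cell, 2.38-fold. Gata4, a transcription factor, fell 2.37-fold (13.5 to 16.4 and 5.45 to 6.90 CPM, adjusted p = 9.13e-05). The calls of the genes named here all held on leaving out any of the 8 sh-Ctl libraries.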
